A study of Macaca mulatta with 23 samples.

Results

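The genes described here are those of the corticosteroid receptors and of the glucocorticoid response: NR3C1, NR3C2, HSP90AB1, FKBP4, FKBP5 and SGK1. Their members are the measured cytosine positions inside a fixed interval of the human genome build hg19 around each gene, 366 of the 444312 positions in the table. NR3C2 had 161 of them, FKBP4 59, FKBP5 44, NR3C1 42, HSP90AB1 34 and SGK1 26. All 6 intervals held positions. The intervals are set by coordinates, but the members were chosen with earlier results of these data known.

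Cortisol acts in the brain through a pair of related nuclear receptors, the glucocorticoid receptor encoded by NR3C1 and the mineralocorticoid receptor encoded by NR3C2. Without hormone the receptor rests in the cytoplasm in a complex with heat shock protein 90, one form of which is HSP90AB1. FKBP5 in that complex lowers the affinity of the glucocorticoid receptor for cortisol, and FKBP4 replaces it when the receptor moves to the nucleus. FKBP5 and SGK1 are themselves induced by glucocorticoids, so FKBP5 closes a feedback loop in the stress response. The amygdala expresses these genes and takes part in fear and anxiety.

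Reduced representation bisulfite sequencing, which reads cytosines in CpG-rich DNA cut with MspI, was run on central amygdala tissue of 23 young rhesus monkeys (Macaca mulatta). The study asked whether methylation there follows anxious temperament, a continuous score of anxious behaviour and physiology, with age as the covariate. Tissue came from the right hemisphere in 12 monkeys and from the left in 11, with 1 library and 1 hemisphere per monkey. Monkeys carry a number within their hemisphere (right 1 to right 12, left 1 to left 11), and in the labels 12 have an identifier that begins with r and 11 one that begins with B. The score ran from -1.48 to 1.43 and age from 1.1 to 2.13 years, with the oldest monkey, left 1, followed by one of 1.64 years. No treatment, genotype or strain is given in the labels. The samples are dissected tissue with many cell types, and a shift in cell types and a shift in methylation within cells cannot be told apart in them. Cell type markers and other genes of the pathway were not located, since gene positions in hg19 were not analysed here.

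The values are fractions of methylated reads, given here as percent, without the number of reads behind them, so the depth per site is unknown. Libraries lacked a value at between 0.751% and 49.7% of all positions (median 2.83%). Of the 366 member positions left 3 lacked 179 (48.9%), left 4 lacked 77 (21%) and right 4 lacked 50 (13.7%). Right 9 stood apart in another way: where the mean level lay between 20% and 80%, it read exactly 0 or 100% at 38.6% of positions, against 1.68% to 13.9% in the other 22 libraries. Where a result among the smallest p of its term rested on 1 of these libraries, the value without it is given.

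The measured positions of the 6 intervals were mostly unmethylated. By mean level, 334 of the 366 member positions (91.3%) were under 20%, 18 (4.92%) were intermediate and 14 (3.83%) were over 80%. Over the whole table the shares were 60.9%, 18% and 21.1%. The median level was 1.05% over the members and 4.37% over the table, and 82.5% of the members lay under 5% where 51.6% of the table did. This is a description of the positions that the assay reached in these intervals, which are not matched to the rest of the table for CpG density.

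The member positions stood in 20 stretches, 18 of which were runs, that is 3 or more positions, each within 200 bp of the next. The level of a run in a monkey is the plain mean of its values there. Of the 18 runs 12 had a mean under 6% and the other 6 lay between 20% and 80%. Those 12 low runs held 319 of the 366 positions. Among the 12 runs of 9 or more positions, 10 had a mean under 6%, and the exceptions were an 11-position run of NR3C2 and a 14-position run of HSP90AB1.

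**Figure D1:**
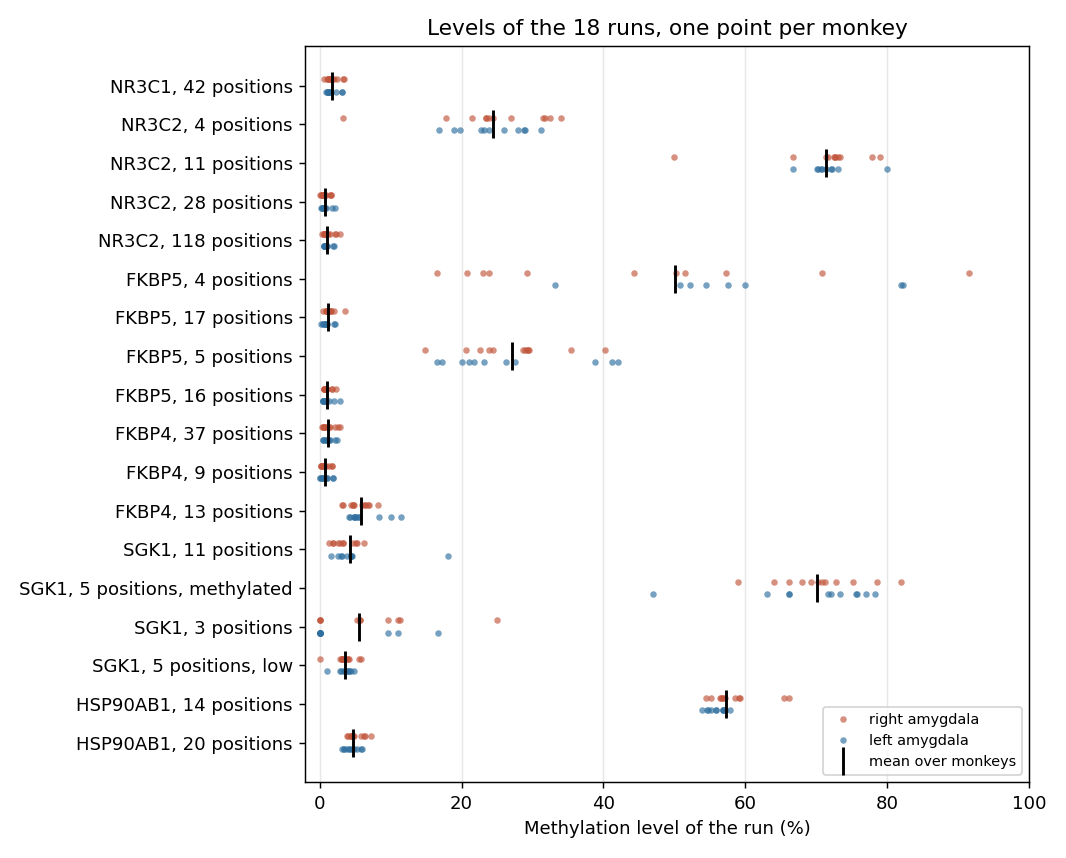
Methylation level (%) of each of the 18 runs, one point per monkey, in right (red, n = 12) and left (blue, n = 11) amygdala, with the mean over monkeys as a black bar. The 12 low runs sit near the left edge, 6 runs lie between 20% and 80%, and the 4-position run of FKBP5 spreads from 16.5% to 91.5%.

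All 42 positions of NR3C1 lay in 1 run inside its CpG-rich promoter island, at chr5:142783298-142783427 (hg19). The island spans 142782 kb to 142786 kb, and the run covers only 130 bp of it. The human gene is transcribed towards lower coordinates, and the run lies 34.6 kb inside the high end of the interval. The table holds no other position of the NR3C1 interval. The run was at 0.667% to 3.4% (median 1.35%) in right amygdala and at 0.929% to 3.21% (median 1.38%) in left amygdala. The hemispheres overlapped almost entirely, and this measured part of the island was close to unmethylated in every monkey. Its mean over the 23 monkeys was 1.71% ± 0.829 (SD). Its positions averaged between 0.348% and 14.7%, and the highest of them, chr5:142783427, is the last of the run and is described below.

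NR3C2 had its densest measurements near the high-coordinate end, where transcription of the human gene begins. A run of 118 positions at chr4:149365298-149365943 averaged 1.09% ± 0.663 (SD, n = 23). It was at 0.356% to 2.81% (median 0.909%) in right amygdala and at 0.551% to 1.97% (median 0.737%) in left amygdala. A second low run of 28 positions at chr4:149363322-149363530 averaged 0.763% ± 0.596 (SD, n = 22). Both runs were thus near 1%, and no monkey exceeded 3% in either.

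Further into NR3C2 the level changed. An 11-position run at chr4:149356288-149356667, 12.3 kb inside the high end, averaged 71.3% ± 5.89 (SD, n = 21). It was at 50% to 79% (median 72.6%) in right amygdala and at 66.7% to 80% (median 71%) in left amygdala. The hemispheres overlapped. The run is a mixture, since 8 of its positions averaged over 80% and 3 under 20%, and a level there depends on which positions a monkey has. The 50% is right 3, with 4 of the 11 positions, and the 80% is left 4, with 5, while monkeys with 9 or more lay between 66.7% and 79%. A 4-position run deep in the gene, at chr4:149038363-149038480, averaged 24.5% ± 6.7 (SD, n = 23), with right 9 lowest at 3.25% and right 6 highest at 34%.

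That 4-position run of NR3C2 consists of 2 pairs of neighbouring bases, and within each pair the levels were far apart. Position 149038363 averaged 52% ± 15.3 (SD, n = 23) and its neighbour 149038364 2.22% ± 2.56. In the other pair 149038480 averaged 40.8% ± 12.2 and 149038479 2.78% ± 3.16. The 2 bases of a CpG are read on opposite strands, and both usually carry the same mark. Among all positions 7.5% of 116201 such pairs differed by more than 30 points in their means, and 4 of the 120 member pairs (3.33%) did. The other 2 were in HSP90AB1. None of the 21 pairs of NR3C1 was apart by this cut on the means, though 142783426 averaged 1.45% and its neighbour 142783427 14.7%. The reads are macaque and the coordinates human, and a base that differs between the species can be read as unmethylated, which was not tested.

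The 34 positions of the HSP90AB1 interval all lay in its last stretch, starting 11.2 kb from its low end. The interval is 13 kb long and the macaque gene 6.46 kb in the RefSeq annotation of assembly T2T-MMU8v2.0, in which the neighbouring coding genes are SLC35B2 and SLC29A1. Whether these positions lie in HSP90AB1 or in or near a neighbour was not determined, and they are described as positions of the interval. HSP90AB1 in the name of a run or position stands for that interval throughout. The 14-position run at chr6:44223188-44223308 was at 54.4% to 66.1% (median 57%) in right amygdala and at 53.9% to 57.8% (median 55.9%) in left amygdala. Right 9 at 66.1% and right 7 at 65.4% stood above the other monkeys, and the rest overlapped. Its mean was 57.3% ± 3.03 (SD, n = 23), and 4 of its positions averaged under 20%, 5 between 20% and 80% and 5 over 80%. The 20-position run at chr6:44224317-44224544 averaged 4.76% ± 1.03 (SD, n = 23).

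FKBP4 was low throughout, with all 59 positions averaging under 20%. The human gene is transcribed towards higher coordinates. Its first run, 37 positions at chr12:2903710-2904210, was at 0.378% to 2.81% (median 0.875%) in right amygdala and at 0.459% to 2.43% (median 1.08%) in left amygdala. The hemispheres overlapped, and the mean was 1.22% ± 0.742 (SD, n = 23). A 9-position run at chr12:2905131-2905258 averaged 0.744% ± 0.589. A 13-position run further on, at chr12:2910325-2910467, was somewhat higher at 5.87% ± 2.03 (SD, n = 23). There right amygdala ranged from 3.15% to 8.23% (median 5.38%) and left amygdala from 4.15% to 11.4% (median 5.15%), with left 4 and left 1 the only monkeys at or above 10%.

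FKBP5 combined low and variable runs. The human gene is transcribed towards lower coordinates. A 16-position run 3.98 kb inside the high end, at chr6:35695884-35696022, averaged 1.03% ± 0.638 (SD, n = 23), and a 17-position run at chr6:35656420-35656533 averaged 1.2% ± 0.729. Neither exceeded 3.53% in any monkey. A stretch of 2 positions at chr6:35695192-35695226 averaged 10.1% ± 7.79 (SD, n = 18).

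The 4-position FKBP5 run at chr6:35645072-35645102 spread over monkeys more than any other member run. It was at 16.5% to 91.5% (median 44.3%, n = 11) in right amygdala and at 33.2% to 82.2% (median 56%, n = 8) in left amygdala. The hemispheres overlapped, with right 3 at 16.5% and right 1 at 20.8% the lowest and right 12 at 91.5% and left 7 at 82.2% the highest. Its mean was 50.1% ± 21.8 (SD, n = 19). Among the 18852 runs of the table with a mean from 20% to 80% the median SD was 6.09 points, and 106 runs (0.562%) had an SD at or above 21.8. Those runs are not matched to this one for number of positions or of monkeys with a value, and a mean over few positions can spread more. The 4 positions lie within 31 bp, yet in some monkeys they disagreed. In right 10 they stood at 62%, 20%, 95% and 29%, in right 11 at 60%, 29%, 100% and 40%, and in left 10 at 71%, 20%, 100% and 18%. In right 5 and left 5 they lay close together, at 61% to 76% and at 54% to 60%. The run had values in fewer than 20 monkeys and entered no test.

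SGK1, the glucocorticoid-induced kinase, had few and scattered positions. An 11-position run at chr6:134499252-134499459 was at 1.27% to 6.27% (median 3.36%, n = 11) in right amygdala and at 1.64% to 18.1% (median 4.13%, n = 10) in left amygdala. Left 4 alone was at 18.1%, and the next highest monkey, right 7, was at 6.27%. Its mean was 4.22% ± 3.44 (SD, n = 21), and 115 of the 8314 runs of the table with a mean under 5% (1.38%) had an SD that large. Those runs too are not matched for number of positions or of monkeys.

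A 5-position run of SGK1 at chr6:134522400-134522478 was methylated, at 59% to 82% (median 70.5%) in right amygdala and at 47% to 78.2% (median 72%) in left amygdala. The hemispheres overlapped. Both ends rest on few positions. The 47% of left 1 and the 82% of right 5 each come from 1 of the 5, the one with the lowest mean over monkeys (59.5%), and the 59% of right 6 from 2. The other monkeys, with 3 or more, lay between 63% and 78.6%. Among the shorter SGK1 stretches, a 3-position run at chr6:134529194-134529238 was at 5.55% ± 7.02 (SD, n = 20) and 2 positions at chr6:134594679-134594725 at 23.6% ± 8.55 (SD, n = 18). A low 5-position run at chr6:134638671-134638799, 3.2 kb inside the high end of the interval, averaged 3.54% ± 1.25 (SD, n = 23).

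Averaged over all its positions per monkey, the HSP90AB1 interval had the highest mean, 26.8% ± 1.77, followed by SGK1 at 18.4% ± 6.33, FKBP5 at 8.03% ± 3.21, NR3C2 at 5.74% ± 1.58, FKBP4 at 2.39% ± 0.918 and NR3C1 at 1.71% ± 0.829 (SD, n = 23 each). The whole table averaged 29.7% ± 1.56. As neighbours in this order FKBP5 and NR3C2 overlapped within their SDs, and so did FKBP4 and NR3C1. These means follow which positions the assay reached and which values a monkey lacked. Over only the positions with a value in every monkey, FKBP5 averaged 4.47% and SGK1 3.54%.

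The study's main question was tested position by position and run by run. The level was fitted on the score with age as a term, by limma, over all positions measured in 20 or more monkeys and varying by 10 points or more among them. Of the members 101 (27.6%) met this, against 43.2% of the table: 31 in NR3C2, 22 in HSP90AB1, 17 in SGK1, 13 in FKBP4, 9 in FKBP5 and 9 in NR3C1. None of the 101 was called for the score at an adjusted p under 0.05, where 0 of 192151 positions of the table (0%) were called. At an unadjusted p under 0.05 the count was again 0 of 101, beside 3.12% of the table. At some tested positions 1 library stood far above the others. At NR3C1 chr5:142783360 right 9 was at 50% and the median was 1%, and at chr5:142783379 left 3 was at 25% and the median 0%.

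The member position with the smallest p for the score was chr4:149363356 in NR3C2. It was at 0% to 12% (median 0.5%) in right amygdala and at 0% to 3% (median 0.5%) in left amygdala, and the monkey at 12%, right 4, had the lowest score of all. The fitted change was -1.53 ± 0.758 points for each score unit (SE, n = 22, limma p = 0.0543, adjusted p = 1). It rests on right 4: the other 21 monkeys lay between 0% and 3%, too narrow a range to be tested, and their least-squares slope was -0.11 ± 0.311 (SE). HSP90AB1 position chr6:44223264 followed, at 44% to 100% (median 64%) in right and 51% to 71% (median 65%) in left amygdala, with the 100% in right 9. Its slope was 6.57 ± 3.48 (SE, n = 23, limma p = 0.0705, adjusted p = 1), and 6.11 without right 9. The other base of its pair, 44223263, had a slope of -0.28 ± 3.09 (SE, limma p = 0.928). NR3C2 position chr4:149365299 was at 0% in 16 of 20 monkeys and at most 12%, with a slope of 1.97 ± 1.08 (SE, limma p = 0.0819, adjusted p = 1).

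In the run fit, which took runs with a range of at least 5 points, 9 member runs were tested and 0 were called for the score (limma, adjusted), beside 0% of the 21253 runs of the table. At an unadjusted p under 0.05 the members gave 0 of 9, beside 3.2% of all runs. The low 5-position run of SGK1 had the smallest p, and right 12 alone, at 0% with a score of 0.89, brought it into the test. Right amygdala was there at 0% to 5.8% (median 3.4%) and left amygdala at 1% to 4.8% (median 3.8%). Per score unit the fitted change was -0.57 ± 0.376 points (SE, n = 23, limma p = 0.146, adjusted p = 1). The other 22 monkeys spanned 4.8 points, with a least-squares slope of -0.34 ± 0.304 without right 12 (SE). Within the r and B series of monkey identifiers it was -1.0 ± 0.822 and -0.451 ± 0.344 (SE). The methylated 5-position run of SGK1 had a slope of -1.84 ± 1.92 and the 5-position run of FKBP5 one of -2.1 ± 2.21 (SE, n = 23 each). Each of these slopes lay within 2 SE of 0.

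The NR3C1 island run did not vary enough to be tested under that rule. With no filter on the range the fitted slope was 0.00962 ± 0.241 points for each score unit (SE, n = 23, limma p = 0.969, adjusted p = 1). The 118-position run of NR3C2 had a slope of 0.115 ± 0.194 (SE, n = 23, limma p = 0.558, adjusted p = 1). For both of these runs the fit left room for shifts of under 1 point per score unit in either direction at 2 SE, on levels near 1% to 2%. The slopes of the other densest runs were 0.0571 ± 0.217 in FKBP5, 0.177 ± 0.218 in FKBP4, -0.713 ± 0.98 in SGK1 and -0.0593 ± 0.304 in HSP90AB1 (SE).

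**Figure D2:**
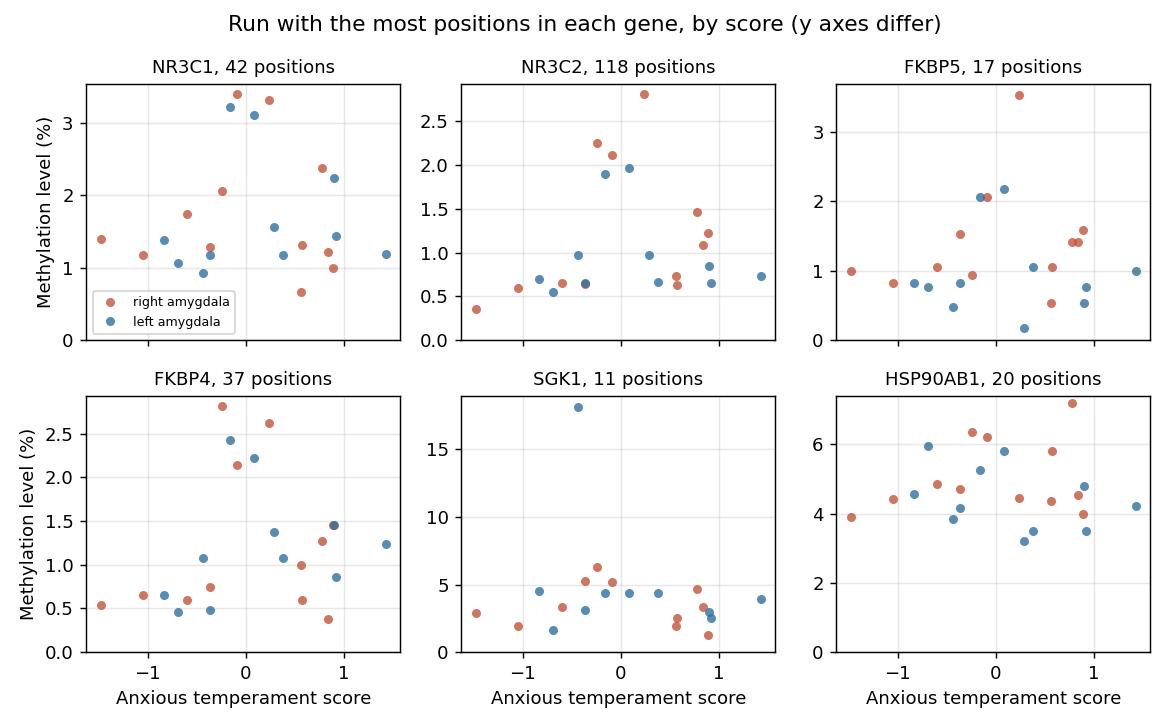
Methylation level (%) of the run with the most positions in each gene against the anxious temperament score, one point per monkey, right (red) and left (blue) amygdala. The y axes differ between panels. In NR3C1, NR3C2, FKBP5 and FKBP4 the high points sit in the middle of the score range, and in SGK1 left 4 stands alone at 18.1%.

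Whether the slope on the score differed between right and left amygdala was tested as an interaction on the 9 member runs, each hemisphere coming from other monkeys. None was called by limma, beside 0% of the runs of the table. Unadjusted, 0 of 9 member runs and 3.56% of the table had a p under 0.05. The smallest p was that of the 13-position FKBP4 run, where the slope was larger in right than in left amygdala by 1.54 ± 1.04 points per score unit (SE, limma p = 0.154, adjusted p = 1).

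Age was a term of the same fit. No member position was called for age by limma with adjustment, beside 0.0531% of the table, and 2 of 101 (1.98%) had an unadjusted p under 0.05, beside 4.06% of all positions. Both lay in the 13-position run of FKBP4. Position chr12:2910346 was at 5% to 10% (median 9%) in right amygdala and at 0% to 21% (median 9%) in left amygdala, with a fitted 10.6 ± 3.88 points per year of age (SE, n = 23, limma p = 0.0114, adjusted p = 0.95). At chr12:2910325 the slope was 6.79 ± 3.1 (SE, limma p = 0.0385, adjusted p = 1), and at chr12:2910368 it was 8.62 ± 4.31 (SE, limma p = 0.0565, adjusted p = 1). These 3 positions share a run and are not independent.

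Of the 9 member runs 0 were called for age after adjustment, beside 0.0565% of the table, and 2 (22.2%) had an unadjusted p under 0.05, beside 4.81% of the table. The 13-position FKBP4 run was one of them. Its 2 highest monkeys were left 4, 1.43 years old, at 11.4%, and left 1, the oldest, at 10.0%, while right 2 and right 3, at 1.64 and 1.55 years, stood at 5.92% and 6.46%. Per year of age the fitted change was 5.09 ± 1.73 points (SE, n = 23, limma p = 0.00755, adjusted p = 0.784). Without left 1 it was 4.69 ± 2.95 (limma p = 0.126, adjusted p = 1), and 4.67 ± 1.42 without left 4 (limma p = 0.00338, adjusted p = 0.584). The 3 oldest monkeys are all of the B series. Within the B monkeys the slope was 5.4 ± 2.21 and within the r monkeys, who span 1.18 to 1.45 years, 0.987 ± 7.95 (SE).

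The other was the methylated 5-position run of SGK1, with a fitted change of -15.6 ± 6.48 points per year of age (SE, n = 23, limma p = 0.0249, adjusted p = 0.977). It rests on left 1, which like right 5 has a value at 1 position of the run. Without left 1 the slope turned to 6.91 ± 9.16 (limma p = 0.459, adjusted p = 1). The 5-position FKBP5 run had a slope of -9.11 ± 7.45 points per year (SE, limma p = 0.234, adjusted p = 0.999).

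Right and left amygdala were compared with score and age in the model. No member position was called by limma after adjustment, beside 0% of the table. At an unadjusted p under 0.05 there were 6 of 101 (5.94%), 4 higher and 2 lower in right amygdala, beside 3.48% of the table. Of these 6, 3 share the 14-position run of HSP90AB1 and are not independent. HSP90AB1 position chr6:44223263 was at 68% to 97% (median 70.5%) in right amygdala and at 55% to 74% (median 63%) in left amygdala. The ranges overlapped, with right 9 highest, and the difference was 10.5 ± 4.06 points (SE, n = 23, limma p = 0.0163, adjusted p = 0.93). Without right 9 it was 8.54 ± 3.68, and without the 6 libraries with raised low positions described below 5.65 ± 4.13. At 44223264, the other base of its pair, right minus left was 1.8 ± 5.15 (SE, limma p = 0.732, adjusted p = 0.959).

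FKBP5 position chr6:35690365 was at 4% to 45% (median 24.5%) in right amygdala and at 0% to 24% (median 12%) in left amygdala. The ranges overlapped, with the median of right amygdala just above the highest left sample, and the difference was 10.2 ± 4.09 points (SE, n = 23, limma p = 0.0199, adjusted p = 0.93). Over the whole 5-position FKBP5 run that holds it, right minus left was -0.14 ± 3.29 points (SE, limma p = 0.968, adjusted p = 0.998). HSP90AB1 position chr6:44223188 was at 35% to 83% (median 59%) in right and 33% to 56% (median 50%) in left amygdala, a difference of 11.7 ± 4.81 (SE, limma p = 0.0227, adjusted p = 0.93). This position is 1 of the pairs whose bases disagreed, with 5.52% at its neighbour.

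Among the runs 0 of 9 were called for the hemisphere by limma, beside 0% of the table, and unadjusted 0 of 9, beside 3.12%. The 14-position run of HSP90AB1 had the smallest p, with right minus left at 2.5 ± 1.37 points (SE, n = 23, limma p = 0.0806, adjusted p = 0.975). Without right 9 it was 1.82 ± 1.2, and without the same 6 libraries 1.11 ± 1.25. Within the r monkeys the difference was 4.07 ± 2.01 and within the B monkeys 1.1 ± 0.688 (SE). In the 3-position SGK1 run the difference was 3.66 ± 3.12 points, and in the 11-position SGK1 run -1.59 ± 1.5, or -0.07 ± 0.684 without left 4 (SE).

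**Figure D3:**
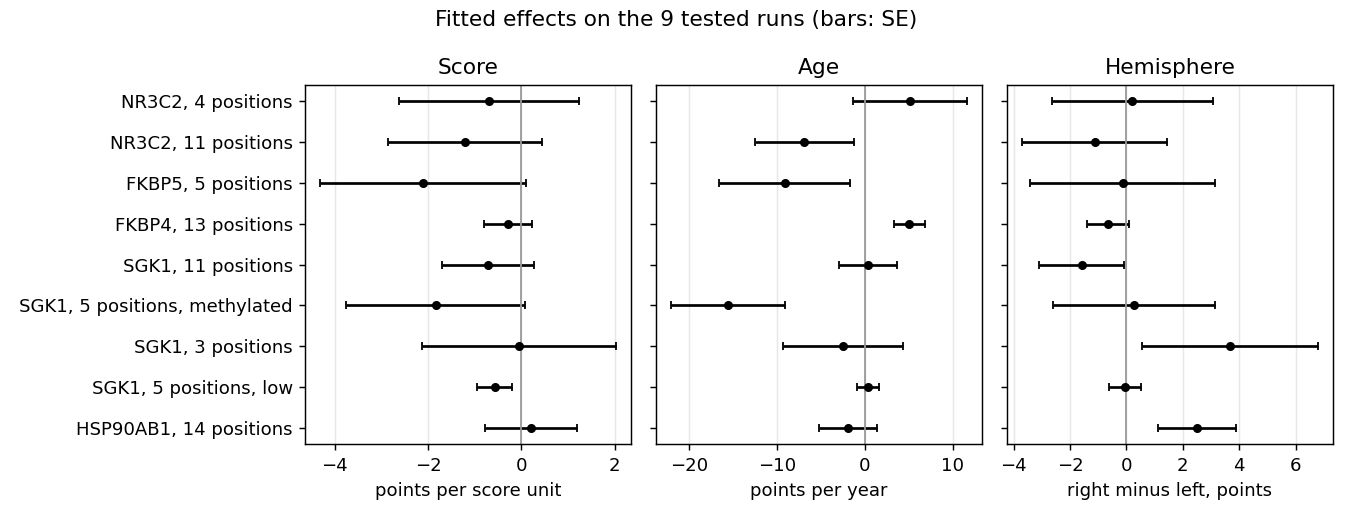
Fitted effect on each of the 9 tested member runs (points) with its SE (bars), for the score (points per score unit), age (points per year) and hemisphere (right minus left, points). Most bars reach or cross 0; the age panel shows the 13-position FKBP4 run at 5.09 and the methylated SGK1 run at -15.6, the value that rests on left 1.

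Differences between libraries were visible in the low runs. At 105111 other low positions of the table (mean under 5%, complete in every monkey), 6 libraries, right 7, right 8, right 9, right 10, left 7 and left 9, averaged 1.75% to 2.49%, and the other 17 averaged 0.826% to 1.3%. The NR3C1 island run stood at 2.05% to 3.4% in the 6 and at 0.667% to 2.24% in the 17, of which 1, left 8, was above the lowest of the 6. The 118-position run of NR3C2 stood at 1.47% to 2.81% in the 6 and at 0.356% to 1.22% in the 17, without overlap. In the densest runs of FKBP5 and FKBP4 the sets overlapped, at 0.941% to 3.53% against 0.176% to 1.59% and at 1.27% to 2.81% against 0.378% to 1.46%.

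The spread of these low receptor runs among monkeys thus moved with the level at unrelated low positions of the same libraries. In the labels these 6 carry the numbers 13, 14, 15, 17, 18 and 19 of a list of 23, whose meaning the labels do not state. Why these libraries stand higher was not tested. With them left out, the member calls after adjustment were again 0 for score, age and hemisphere by limma. Of the 73 member positions still tested, 1, 2 and 0 had an unadjusted limma p under 0.05. The share of the whole table in that setting is not given here, so these counts have no background beside them.

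**Figure D4:**
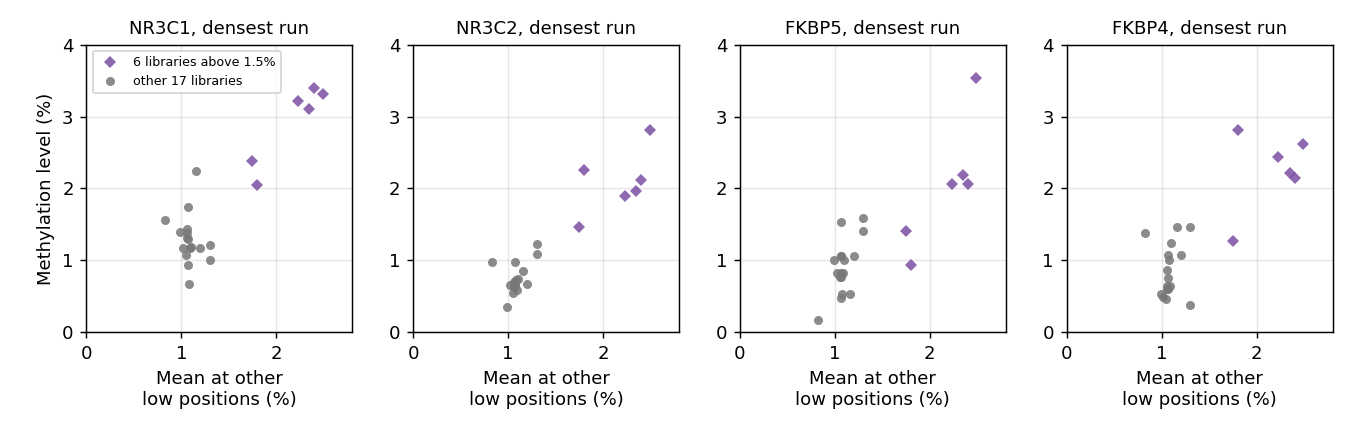
Level (%) of the densest run of NR3C1, NR3C2, FKBP5 and FKBP4 against the mean (%) at 105111 other low positions in the same library, one point per monkey. Purple diamonds are the 6 libraries above 1.5% on the x axis and grey circles the other 17; in NR3C2 the sets do not overlap.

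A single position could spread far more than its run. By SD over monkeys the leading tested members were FKBP5 chr6:35690245 (24.6 points), SGK1 chr6:134529238 (20.7), NR3C2 chr4:149038363 (15.3), NR3C1 chr5:142783427 (13.5) and FKBP5 chr6:35690280 (13.2). The FKBP5 position 35690245, the first of the 5-position run at chr6:35690245-35690432, fell into separate groups of monkeys. It was at 79% in right 10, 76% in right 11, 79% in left 8, 91% in left 9 and 81% in left 10. In the other 18 monkeys it was at 6% to 42% (median 26%). Its neighbour in the run, 35690280, ranged from 32% to 91% (median 73%).

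The same 5 monkeys were the highest at the last position of the NR3C1 island run, chr5:142783427. It was at 30% in right 10, 35% in right 11, 54% in left 8, 42% in left 9 and 20% in left 10. In the other 17 monkeys with a value it was at 0% to 15% (median 8%). Both positions thus put the same monkeys above all others, with a gap in FKBP5 of over 30 points. The set was read off the FKBP5 position, so its gap there is a description. At NR3C1 the other base of the pair, 142783426, averaged 1.45% ± 1.37 (SD, n = 22) and did not exceed 5% in any monkey. The 5 monkeys come from both hemispheres and both identifier series, their scores run from -0.83 to 0.9, and right 10 and left 9 are also among the 6 libraries above. In the labels the 5 carry the numbers 16, 17, 19, 20 and 22 of the same list of 23. Why they stand together was not tested. The slope of the FKBP5 position on the score was -6.34 ± 6.75 points per unit (SE, limma p = 0.357, adjusted p = 1), and -0.82 ± 3.16 without the 5. The 5-position FKBP5 run itself, at 14.8% to 40.2% (median 28.8%) in right and 16.6% to 42% (median 23.2%) in left amygdala, had a mean of 27.1% ± 7.95 (SD, n = 23).

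**Figure D5:**
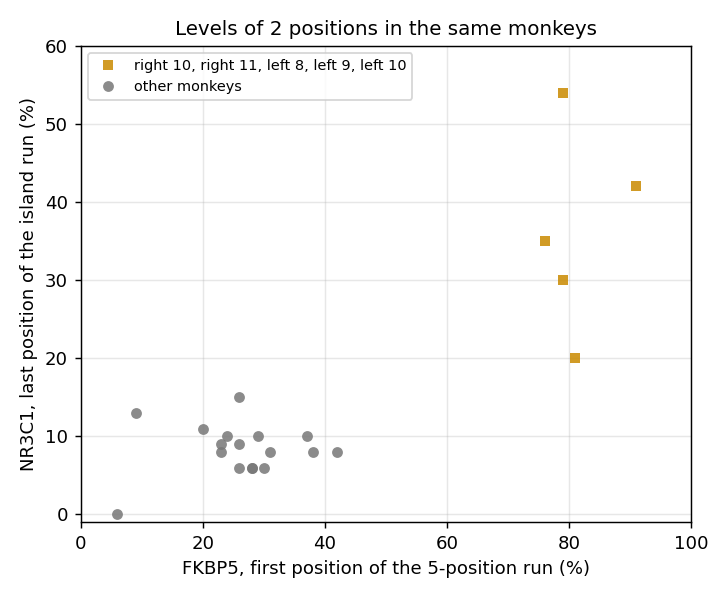
Level (%) at the last position of the NR3C1 island run (y axis) against the level (%) at the first position of the 5-position FKBP5 run (x axis), one point per monkey with both values. Orange squares are right 10, right 11, left 8, left 9 and left 10, at 76% to 91% in FKBP5 and 20% to 54% in NR3C1; grey circles are the other monkeys.

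SGK1 position chr6:134529238 was at 0% in 10 of 20 monkeys. It was at 0% to 75% (median 17%) in right amygdala and at 0% to 50% (median 0%) in left amygdala, with right 10 at 75% and left 10 at 50% the highest. Its slope on the score was -1.02 ± 5.84 (SE, limma p = 0.863, adjusted p = 1). NR3C2 position chr4:149038363 was at 0% to 81% (median 50%) in right amygdala and at 34% to 67% (median 54%) in left amygdala, with the 0% in right 9, and its slope was -0.62 ± 4.59 (SE, limma p = 0.893, adjusted p = 1). At NR3C1 chr5:142783427 the slope was 0.12 ± 3.68 (SE, n = 22, limma p = 0.974, adjusted p = 1).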

How the data were processed

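The authors deposited the methylation level of each position and monkey as a fraction. Per the submitters' processing notes, Bismark 0.11.1 and the human build hg19 were used. No label gives coverage filters or strand handling, and no interval or detection floor could be computed. Fractions were multiplied by 100. Linear models (limma 3.58.1, R 4.3.3) covered all positions and runs of the table (empirical Bayes with a trend, Benjamini-Hochberg adjustment over the whole table, called at an adjusted p under 0.05, 2-sided), and only member rows are printed. The fitting code was checked on simulated data with score slopes far larger than any fitted to a member. That check does not show whether small shifts would be found. A monkey without a value did not enter that position's fit. Named were the densest run of each gene, runs of 5 or more positions at 20% to 80%, the 3 runs and 3 positions with the smallest p for each term, and the 5 tested positions with the largest SD. The members and lists were chosen with earlier results of these data known. Each monkey is 1 sample, so p-values measure the spread between monkeys. Files were read with data.table (version 1.17.8) and pandas 2.3.3, and Python 3.11.15 with matplotlib 3.10.9 drew the figures. No hg19 gene annotation or sequence was used here, so no sequences are printed and exons, introns and UTRs are not named.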

Additional observations from a re-analysis of the deposited data

How the results depend on the processing

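After adjustment the member calls stayed at 0 for score, age and hemisphere, for positions and runs alike, under every alternative run: other scales of the level, other filters, covariates and run definitions, and each monkey left out in turn. Unadjusted, the count of member positions with a limma p under 0.05 was 0 to 3 for the score, 0 to 5 for age and 0 to 7 for the hemisphere. The number of members tested changed with the setting. The shares of the whole table in these settings are not given here, so the counts have no background beside them. The following alternatives were chosen after seeing the data: the 6 libraries above 1.5% at low positions left out, that level as a covariate, and the 5 monkeys that were highest together left out. The slopes without right 4 at NR3C2 149363356 and without right 12 in the low SGK1 run, also chosen after seeing the data, are least-squares values with no test, since both then missed the range filter. With only positions measured in every monkey the gene mean was 3.04% in NR3C2, 4.47% in FKBP5, 3.54% in SGK1 and 33.1% in HSP90AB1, and without the outer 2 kb of the interval it was 11.7% in FKBP5. Slopes that changed sign were small or rested on 1 library, and none was called. On age, the methylated SGK1 run gave 6.91 without left 1 and 11.5 with values required at 50% of the run, and on the score 0.50 with the latter. On the score, NR3C1 142783427 gave -0.0573 on the logit and -0.00519 on the arcsine scale (both in other units), -0.33 with the hemisphere, -0.95 with the identifier series and -0.0917 with the low-position level as covariates, and -0.13 without left 1; NR3C2 149038363 gave 0.0168 without left 3 and right 9 and 1.46 without the 6 libraries; the 14-position HSP90AB1 run gave -0.00177 without the 5 monkeys. With each monkey left out in turn the slope ran from -2.94 to 1.29 at NR3C1 142783427, from -2.14 to 0.319 at NR3C2 149038363 and from -2.33 to 1.80 at SGK1 134529238, and from -0.189 to 0.493 in the 14-position HSP90AB1 run; on age it ran from -18.6 to 6.91 in the methylated SGK1 run. No paired analysis was possible because right and left samples come from different monkeys, and a shared number is only a name. A coverage minimum could not be varied, since depth is unknown. Small shifts on levels near 1% are under the rounding of the values to whole percent at single positions.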

Other observations

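The group of 5 monkeys seen at FKBP5 and NR3C1 recurred elsewhere. Of all 192151 tested positions, 256 (0.133%) had right 10, right 11, left 8, left 9 and left 10 above all other monkeys. Among the 101 tested members there were 2, the FKBP5 and NR3C1 positions. Among the 151 tested positions whose 5 highest monkeys stood at least 20 points clear of the rest, 26, on 16 chromosomes, had this very set. No other of the 116 sets occurred more than 2 times. The set was read off the FKBP5 position, which is itself counted in the 256 and in the 26, so these counts are descriptions. Of the 256 positions with the 5 above all others, 248 lay in runs. Of these 248, 144 (58.1%) were the first or last position of their run, against 17.3% of the 189438 tested positions in runs. The FKBP5 position is the first of its run and the NR3C1 position the last.

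The 5-position FKBP5 run was compared with 14874 other runs across the 23 monkeys. The run most like it lay on chromosome 8 (Pearson r = 0.858, mean 5.39%), followed by chr21:34482371-34482487 (Pearson r = 0.836, mean 36.4%) and chr7:66461858-66461981 (Pearson r = 0.833, mean 1.5%). The monkeys share libraries across runs, and these values are descriptions without a test.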
